A study of Homo sapiens with 3 samples.

Results

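The genes described here are 47 genes of the DNA damage response and of homologous recombination, chosen by symbol from textbook roles, among 50868 genes in the count files. They were measured by mRNA sequencing in NCI-H23, a line grown from a human lung adenocarcinoma that has been used as a model of ATM deficiency. One group was 2 libraries of NCI-H23 cells transfected with siRNA against USP16, numbered 1 and 2 in their labels without a statement of whether they are different siRNAs or separate cultures. The other group was 1 library of NCI-H23 cells transfected with control siRNA. The p-values rest on the spread between the 2 USP16 siRNA libraries, since 1 control library has no spread of its own. Nothing says that the libraries came from separate cultures, so that spread may be technical. The members filled 48 rows, since ATRIP appeared under 2 gene identifiers, and all 48 rows passed the filter on low counts that left 17287 genes for testing. In bulk samples such as these, fewer cells expressing a gene and less RNA per cell cannot be told apart.

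A DNA double-strand break activates the kinase ATM, while single-stranded DNA activates ATR with its partner ATRIP, and both signal to the checkpoint kinases CHEK2 and CHEK1. At a break, MDC1 binds phosphorylated histone and recruits the ubiquitin ligases RNF8 and RNF168, whose ubiquitin marks on histone H2A recruit TP53BP1 and the BRCA1-BARD1 ligase. USP16 acts on the same histone, from which it takes ubiquitin off. Repair then goes through homologous recombination, which copies a sister chromatid, or through non-homologous end joining, which ligates the ends directly.

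The libraries held 13956382 and 15071179 counts in USP16 siRNA cells and 14007161 counts in control cells. USP16 itself was at 7.69 and 15.8 CPM (counts adjusted for the size of each library) in USP16 siRNA libraries 1 and 2, against 47.5 CPM in the control library. These levels were 83.8% and 66.8% lower than in the control, and the difference did not pass the edgeR test over all genes (adjusted p = 0.561, and 0.0188 to 0.869 over the alternatives). Mitochondrial transcripts took 7.41% and 7.33% of counts in USP16 siRNA cells and 8.56% in control cells. All 5 epithelial markers were present, with summed counts of 3359 and 5621 in USP16 siRNA cells and 5359 in control cells. KRT8 had 1118 and 1880 counts in USP16 siRNA cells and 2214 in control cells, and KRT18 had 1986 and 3364 in USP16 siRNA cells and 2903 in control cells. CDH1 had 39 and 93 counts in USP16 siRNA cells, below its count in control cells. EPCAM was on the other side of the control, with 161 and 232 counts in USP16 siRNA cells and 38 in control cells. The lung lineage markers were at or near 0, with 4 and 10 counts for NKX2-1 in USP16 siRNA cells and 6 in control cells, and 0 counts of SFTPB in every library. Of 8 markers of immune, endothelial and fibroblast cells, 3 had more than 10 counts in any library, and the 8 summed to 1078 and 913 counts in USP16 siRNA cells and 1049 in control cells. Those 3 were COL1A1 (881 and 700 counts in USP16 siRNA cells, 918 in control cells), CD68 (144 and 130 in USP16 siRNA cells, 78 in control cells) and PDGFRB (40 and 72 in USP16 siRNA cells, 42 in control cells). The defining markers PTPRC, CD3E and PECAM1 had at most 1 count in any library. The part of these marker levels in the results below was not tested.

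None of the 48 member rows passed an adjusted p of 0.05 in the edgeR quasi-likelihood test over all genes, and DESeq2 called 0 as well. Over all genes tested the call rate was 0% for higher and 0.0174% for lower. At an unadjusted p under 0.05, edgeR and DESeq2 each had 2 member rows, 4.17% of them, where 4.88% of all genes tested by edgeR had such a value. Those 2 in edgeR were EME2 and XRCC4, which were also the members at least 2-fold higher in both USP16 siRNA libraries. That is 2 of 48 rows, or 4.17%, against 3.75% of all genes tested, and 0 of 48 were at least 2-fold lower in both, against 1.68%. At 1.5-fold, 3 rows (6.25%) were higher in both libraries, EME2, XRCC4 and RAD50, against 9.52% of all genes tested. One row (2.08%), BARD1, was at least 1.5-fold lower in both, against 6.21%.

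The members are more abundant than most genes, with 46 of 48 rows averaging 100 counts or more, so the same shares are also given for the 11236 genes of that abundance. Among these, 0.0089% passed the adjusted threshold as lower and 4.67% had an unadjusted p under 0.05. At least 2-fold higher in both libraries were 1.36% and lower 1.02%, and at 1.5-fold 5.02% were higher and 5.13% lower. Of the 46 abundant member rows, 2 (4.35%) were past 2-fold on the higher side, 3 (6.52%) past 1.5-fold on that side and 1 (2.17%) past 1.5-fold on the lower side. The members' share past 2-fold was thus near that of all genes tested, and it rests on EME2 and XRCC4 alone. These had 40 and 80 counts in control cells and averaged 100 or more only through the USP16 siRNA libraries. The filter thus used the same counts as the fold, so no conclusion is drawn from the comparison with abundant genes past 2-fold.

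The median log2 fold change of the members was 0.05 in USP16 siRNA library 1 and 0.19 in library 2. Both changes are taken against the same control library, so any error in it moves them together. Over all genes tested the medians were 0.00 in both libraries, and among the more abundant genes they were -0.03 and -0.06. Both USP16 siRNA libraries lay above the control for 22 member rows and both below it for 16, which is 45.8% and 33.3% of rows. Among all genes tested the shares were 33.4% above and 33.5% below, and among abundant genes 29.7% and 36.6%. Another 10 rows had one library on each side. The USP16 siRNA libraries were at least 1.5-fold apart from each other for 11 of the rows (22.9%), against 36.5% of all genes tested and 29.4% of abundant genes. These 11 were EME2, XRCC4, RIF1, WRN, FANCB, RAD54B, FANCD2, RAD51D, PALB2, RAD54L and RNF8. Apart from EME2 and XRCC4, the gap between the libraries of each of these genes was wider than the distance of their mean from the control.

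**Figure D1:**
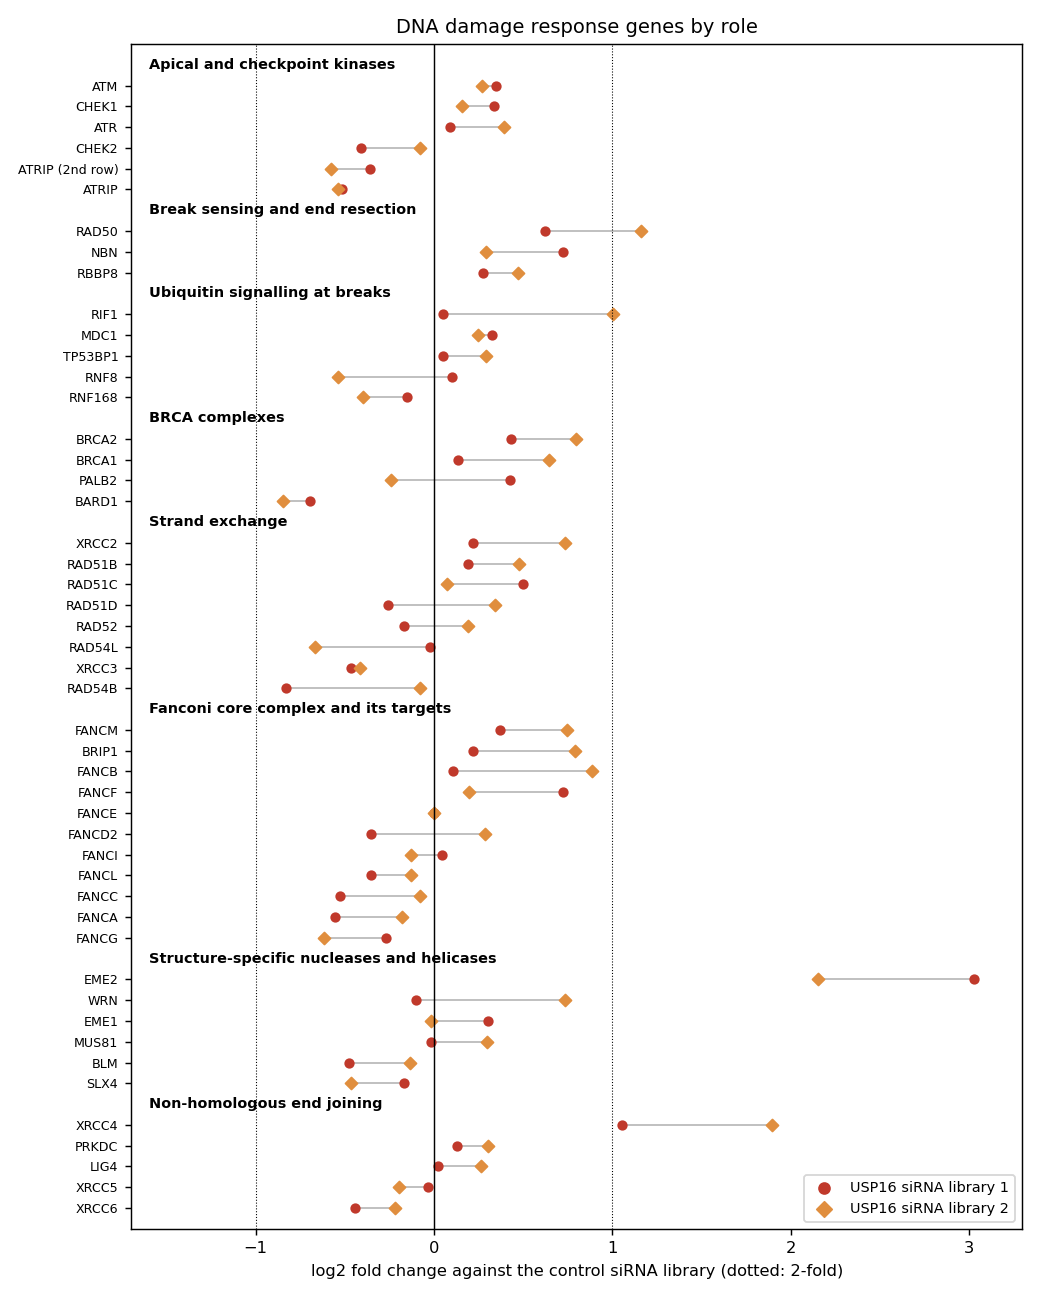
Log2 fold change of each member row against the control siRNA library (x axis), grouped by role, with circles for USP16 siRNA library 1, diamonds for library 2 and a grey line between them. Only EME2 and XRCC4 have both symbols to the right of the 2-fold line, and 10 rows have their symbols on opposite sides of 0.

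Levels were set side by side as CPM per kilobase (kb) of the longest protein-coding transcript. Genes of non-homologous end joining led, of which XRCC6 was at 316 and 370 CPM per kb in USP16 siRNA libraries 1 and 2 and at 430 in the control library. XRCC5, which pairs with XRCC6 in the Ku ring that threads onto broken ends, was at 172 and 154 CPM per kb in USP16 siRNA cells and at 176 in control cells. PRKDC, the catalytic subunit of the kinase that Ku recruits, was at 146 and 165 CPM per kb in USP16 siRNA cells and at 133 in control cells. These genes held the highest 3 ranks in each library, and FANCI the fourth, at 45.0 and 39.9 CPM per kb in USP16 siRNA cells and 43.6 in control cells. By this measure RAD51B was the lowest of the 47 in every library, at 1.66 and 2.03 CPM per kb in USP16 siRNA cells and 1.45 in control cells. EME2 ranked 9 and 23 in USP16 siRNA libraries 1 and 2 and 45 in the control library. Ranks depend on the length used: per kb of all annotated exons EME2 ranked 38 and 46 in USP16 siRNA cells and 47 in control cells, and RAD51B was then the lowest in USP16 siRNA cells only. XRCC6, XRCC5 and PRKDC held the highest 3 ranks with that length too.

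Promoter sequences are shown for the genes at least 1.5-fold away from the control in both libraries, from RefSeq promoters on GRCh38.p14, which hold 41 of the 47 members. Each printed stretch is the part of the 250 bases before the RefSeq start that holds no annotated exon. XRCC4 is not printed, because exons of TMEM167A and of XRCC4 fill nearly all of its window. The RefSeq start of EME2 lies upstream of the GENCODE gene, and the stretch shown, chr16:1772699-1772798 on the plus strand, is intronic in MRPS34 on the opposite strand. The stretch of RAD50 is chr5:132556839-132556937 on the plus strand. It lies inside the GENCODE gene, which begins at chr5:132556019, and exons of IL5 and of RAD50 lie elsewhere in its window. That of BARD1 is chr2:214809712-214809933 on the minus strand. Capitals mark CCGGAAGT, the binding motif of ETS factors.
EME2: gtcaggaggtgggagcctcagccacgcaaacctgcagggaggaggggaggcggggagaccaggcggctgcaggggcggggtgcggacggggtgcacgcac
RAD50: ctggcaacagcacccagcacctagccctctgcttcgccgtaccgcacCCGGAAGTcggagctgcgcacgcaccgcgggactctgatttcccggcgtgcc
BARD1: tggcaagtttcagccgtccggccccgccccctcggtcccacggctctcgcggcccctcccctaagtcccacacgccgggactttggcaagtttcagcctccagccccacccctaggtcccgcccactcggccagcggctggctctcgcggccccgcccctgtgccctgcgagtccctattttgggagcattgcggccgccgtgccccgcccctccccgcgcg

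In the full window of 250 bases, searched on both strands, RAD50 held 2 matches to CCGGAAGT, EME2 held 1 match to TTTGAA (the core of the cell cycle element CHR) outside the stretch shown, and XRCC4 and BARD1 held none of the motifs searched. Over the 41 members, 7 windows (17.1%) held CCGGAAGT, against 3.64% of all RefSeq promoters and 6.68% of those of genes tested. CCAAT was in 18 member windows (43.9%), against 33.0% of all promoters and 34.6% of those of genes tested. TTTGAA was in 6 (14.6%), against 13.6% and 8.29%, and the E2F motif TTTNNCGC in 4 (9.76%), against 5.93% and 8.73%. The NRF1 motif was in 0 of 41, against 1.13% and 1.86%. No match overlapped another motif in the stretches shown. The motifs were chosen with the letters in view, and the shares describe these windows alone.

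EME2 and EME1 are alternative partners of MUS81, the nuclease that cuts branched DNA at stalled forks and joined chromosomes. EME2 (chr16:1773207-1781708, plus strand, hg38) had 361 and 215 counts in USP16 siRNA libraries 1 and 2, against 40 in the control library. That is 25.5 CPM (exact Poisson 95% interval 22.9 to 28.2) and 13.8 CPM (12.0 to 15.8) in USP16 siRNA cells, against 3.0 CPM (2.15 to 4.09) in control cells, so both USP16 siRNA libraries lay clear of the control. The fold over control was 8.48 (exact binomial 95% interval 6.10 to 12.1) in library 1 and 4.60 (3.27 to 6.62) in library 2, and intervals throughout cover counting error only. The mean log2 change was 2.59 ± 0.62 (SD, n = 2), where the SD leaves out the variation of the single control library. The edgeR adjusted p was 0.561, DESeq2 gave 0.0566, and the value over all alternatives ran from 0.0188, where low genes were kept in, to 0.840. Exons of EME2 share 2073 of their 6909 bases with exons of SPSB3 on the opposite strand, and use of strand in the counting is not given. SPSB3 had 116 and 155 counts in USP16 siRNA cells and 200 in control cells, lower where EME2 was higher, and the part of shared exons in the EME2 counts was not tested. MRPS34, which adjoins EME2 on the opposite strand, had 690 and 446 counts in USP16 siRNA cells and 399 in control cells.

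EME1 had 339 and 298 counts in USP16 siRNA cells, against 258 in control cells (log2 change 0.30 and -0.02). MUS81 had 319 and 435 counts in USP16 siRNA cells, against 303 in control cells (-0.02 and 0.30). EME1 shares 541 exon bases with LRRC59 on the opposite strand, which had 5648 and 4770 counts in USP16 siRNA cells and 4050 in control cells. MUS81 shares 759 exon bases with CFL1 on the opposite strand, which had 8125 and 4402 counts in USP16 siRNA cells and 10223 in control cells. The part of these shared exons was not tested. Neither EME1 nor MUS81 was 1.5-fold away from the control in any library. As a ratio of CPM per kb inside 1 library, which does not depend on how libraries were scaled, EME2 stood to EME1 at 2.03 (exact binomial 95% interval 1.75 to 2.36) in USP16 siRNA library 1 and at 1.38 (1.15 to 1.65) in library 2, against 0.296 (0.206 to 0.414) in the control. The size of the ratio depends on the length taken for EME2, while its change between libraries does not. With all annotated exons as the length, 6909 bases for EME2 and 3294 for EME1, the ratios were 0.508 and 0.344 in USP16 siRNA cells and 0.0739 in control cells. The USP16 siRNA libraries lay apart from the control, and library 1 was the higher of them.

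The other enzymes of the group differed less. SLX4, a scaffold for structure-specific nucleases, had 570 and 507 counts in USP16 siRNA cells, against 601 in control cells (log2 change -0.17 and -0.47). WRN, a RecQ helicase, had 530 and 1038 counts in USP16 siRNA cells, against 534 in control cells (-0.10 and 0.73). BLM, the RecQ helicase that dissolves double Holliday junctions, had 576 and 802 counts in USP16 siRNA cells, against 753 in control cells (-0.48 and -0.13). WRN was thus level with the control in one USP16 siRNA library and higher in the other.

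XRCC4 is the scaffold that holds LIG4, the ligase of non-homologous end joining. The gene (chr5:83077498-83353787, plus strand, hg38) had 179 and 354 counts in USP16 siRNA libraries 1 and 2, against 80 in the control library. Its levels were 12.6 CPM (exact Poisson 95% interval 10.8 to 14.6) and 22.8 CPM (20.5 to 25.3) in USP16 siRNA cells, against 6.01 CPM (4.76 to 7.48) in control cells. Again both USP16 siRNA libraries lay above the control, with library 2 the higher. The mean log2 change was 1.48 ± 0.60 (SD, n = 2; edgeR adjusted p = 0.999), and over the alternatives the adjusted p ran from 0.610 to 1.00. XRCC4 begins head to head with TMEM167A, which had 991 and 2204 counts in USP16 siRNA cells and 798 in control cells. LIG4 had 306 and 397 counts in USP16 siRNA cells, against 283 in control cells (log2 change 0.02 and 0.26). The ratio of XRCC4 to LIG4, per kb, was 1.44 (exact binomial 95% interval 1.19 to 1.74) and 2.20 (1.90 to 2.54) in USP16 siRNA cells, against 0.697 (0.537 to 0.896) in control cells.

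The abundant end joining genes were less than 1.5-fold away from the control in both libraries. XRCC6 had 12117 and 15590 counts in USP16 siRNA cells, against 15507 in control cells (log2 change -0.45 and -0.22). PRKDC had 27919 and 34631 counts in USP16 siRNA cells, against 24001 in control cells (0.13 and 0.30). XRCC5 had 9170 and 8984 counts in USP16 siRNA cells, against 8803 in control cells (-0.03 and -0.20). The ratio of XRCC6 to XRCC5 per kb was 1.83 and 2.41 in USP16 siRNA cells and 2.45 in control cells, so that library 1 was lower than both the other libraries.

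**Figure D2:**
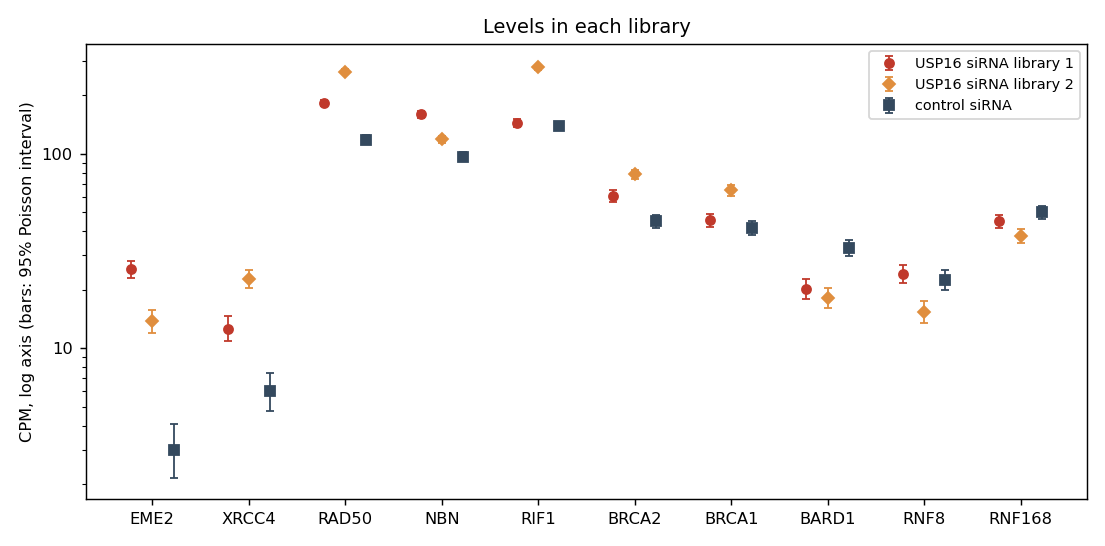
CPM on a log axis of 10 members in the USP16 siRNA libraries (circle and diamond) and the control siRNA library (square), with exact Poisson 95% intervals. EME2, XRCC4, RAD50, NBN and BRCA2 have both USP16 siRNA libraries above the control, and BARD1 has both below it, with intervals clear of it. BRCA1 is above the control and RNF168 below it in both, with intervals that overlap the control in library 1. RNF8 lies on both sides of the control. RIF1, at 144 and 279 CPM in USP16 siRNA cells and 139 CPM in control cells, has 1 library level with the control.

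The group of break sensing and end resection held NBN, RAD50 and RBBP8 alone, and not every gene of these steps. These were above the control in both USP16 siRNA libraries, 3 of 3 beside 33.4% of all genes tested, and none passed the test. Of 5 further genes of resection and single-strand binding, 0 were above the control in both libraries. Once library size was taken into account, 2 were below it in both libraries, beside 33.5% of all genes tested. These 2 were the nuclease EXO1, with 834 and 558 counts in USP16 siRNA cells and 808 in control cells, and RPA3, of the complex that coats single strands, with 428 and 450 counts in USP16 siRNA cells and 430 in control cells. For the 3 members the median log2 change was 0.62 in library 1 and 0.47 in library 2. RAD50 and NBN belong to the complex that recognises and tethers broken ends, and RBBP8 starts their resection. RAD50 (chr5:132556019-132646344, plus strand) had 2586 and 4121 counts in USP16 siRNA cells, against 1577 in control cells. Its mean log2 change was 0.89 ± 0.38 (SD, n = 2; edgeR adjusted p = 0.999, with 0.895 the lowest over the alternatives). With the trend on GC content removed it was at 0.57 and 1.04, and library 1 was then under 1.5-fold. NBN had 2267 and 1843 counts in USP16 siRNA cells, against 1287 in control cells (log2 change 0.73 and 0.29). RBBP8 had 990 and 1246 counts in USP16 siRNA cells, against 768 in control cells (0.28 and 0.47). The library that was higher differed between these genes: NBN to RAD50, per kb, stood at 1.56 in USP16 siRNA library 1 and 0.796 in library 2, against 1.45 in the control.

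The genes of ubiquitin signalling at breaks lay on both sides of the control, and none of the 5 passed the test. RNF8 (chr6:37353972-37394738, plus strand), the ligase that acts first and marks linker histones and H2A at breaks, had 341 and 240 counts in USP16 siRNA cells, against 299 in control cells. Its log2 change was 0.10 and -0.54, with one library on each side of the control. RNF168 (chr3:196468783-196503768, minus strand), which extends the H2A mark, had 639 and 589 counts in USP16 siRNA cells, against 666 in control cells. Its log2 change was -0.15 and -0.40 (mean -0.27 ± 0.18, SD, n = 2; edgeR adjusted p = 0.999). The ratio of RNF168 to RNF8 per kb was 1.97 (exact binomial 95% interval 1.73 to 2.26) and 2.58 (2.22 to 3.02) in USP16 siRNA cells, on either side of 2.35 (2.04 to 2.70) in control cells. Counting error leaves folds of 0.915 to 1.26 for RNF8 in library 1 and of 0.577 to 0.817 in library 2.

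MDC1, which recruits RNF8, had 2288 and 2376 counts in USP16 siRNA cells, against 1714 in control cells (log2 change 0.33 and 0.25). TP53BP1, which limits end resection, had 2603 and 3376 counts in USP16 siRNA cells, against 2358 in control cells (0.05 and 0.29). RIF1, an effector of TP53BP1, had 2039 and 4339 counts in USP16 siRNA cells, against 1852 in control cells (0.05 and 1.00). TP53BP1 (fold 0.980 to 1.10) and RIF1 (fold 0.971 to 1.10) were thus within counting error of the control in library 1, and RIF1 was 2.01-fold higher in library 2 (exact binomial 95% interval 1.90 to 2.12). Exons of TP53BP1 share 3732 bases with TUBGCP4 on the opposite strand.

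BRCA1 and BARD1 form the ubiquitin ligase that places its own mark on H2A, and PALB2 links BRCA1 to BRCA2, which acts on resected ends. BARD1 (chr2:214725646-214809711, minus strand) had 286 and 282 counts in USP16 siRNA cells, against 436 in control cells. Its mean log2 change was -0.77 ± 0.11 (SD, n = 2; edgeR adjusted p = 0.999, with 0.945 the lowest over the alternatives), and it had the lowest mean of all member rows. BRCA1 had 645 and 1009 counts in USP16 siRNA cells, against 552 in control cells (0.13 and 0.64). The partners were on opposite sides of the control, though BRCA1 in library 1 was within counting error of it (fold 0.978 to 1.23). BARD1 to BRCA1, per kb, stood at 0.586 (exact binomial 95% interval 0.508 to 0.675) and 0.369 (0.323 to 0.422) in USP16 siRNA cells, against 1.04 (0.919 to 1.19) in control cells.

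BRCA2 had 860 and 1219 counts in USP16 siRNA cells, against 599 in control cells (log2 change 0.43 and 0.80). PALB2 had 458 and 316 counts in USP16 siRNA cells, against 320 in control cells (0.43 and -0.24). BRCA2 was above the control in both libraries, and PALB2 in library 1 alone.

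**Figure D3:**
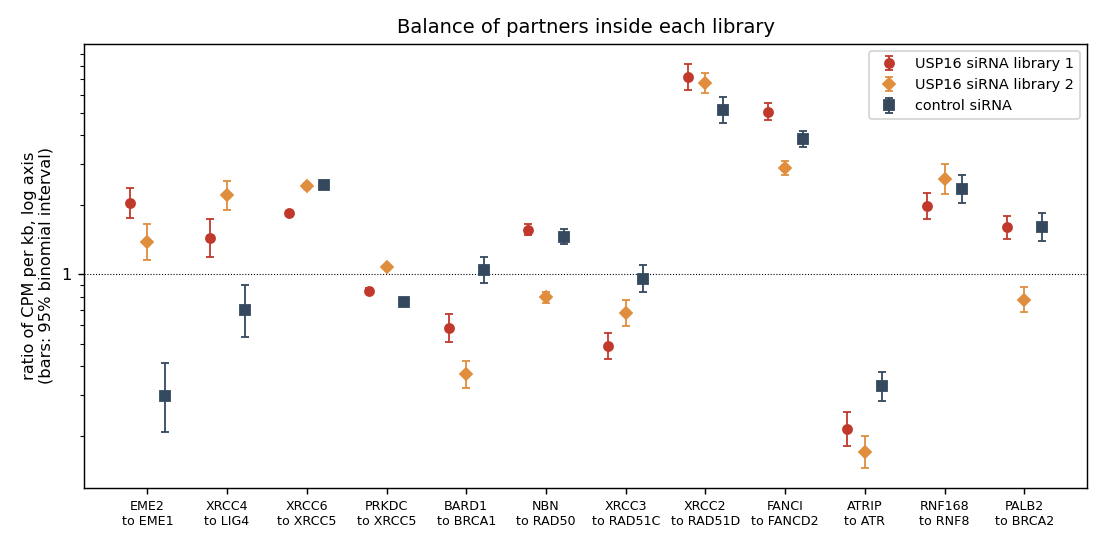
Ratio of CPM per kb between members that work as partners, inside each library, on a log axis, with exact binomial 95% intervals that cover counting error only. In both USP16 siRNA libraries EME2 to EME1, XRCC4 to LIG4, XRCC2 to RAD51D and PRKDC to XRCC5 lie above the control siRNA library. BARD1 to BRCA1, XRCC3 to RAD51C and ATRIP to ATR lie below it, and the intervals of all these are clear of it. Some of these genes, EME2, XRCC3 and ATRIP among them, share exons with other genes, and the part of this in the ratios was not tested. RNF168 to RNF8 lies on both sides.

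The genes of strand exchange, 8 in all, had 3 above and 3 below the control in both USP16 siRNA libraries and 0 past the test. Of all genes tested, 33.4% were above and 33.5% below in both. XRCC2, of a complex that also holds RAD51D, had 751 and 1180 counts in USP16 siRNA cells, against 607 in control cells (log2 change 0.22 and 0.73). XRCC3 had 360 and 409 counts in USP16 siRNA cells, against 468 in control cells (-0.47 and -0.42). Of its exon length, 76.7% is shared with KLC1 on the opposite strand. KLC1 had 1254 and 2199 counts in USP16 siRNA cells and 1197 in control cells, and the part of the exons it shares with XRCC3 was not tested. RAD54B, a DNA translocase, had 414 and 769 counts in USP16 siRNA cells, against 694 in control cells (-0.83 and -0.08). RAD54B was low in library 1 alone. Its exons share 59.1% of their length with FSBP on the same strand, which had 186 and 10 counts in USP16 siRNA cells and 39 in control cells, high in the library where RAD54B was low, and the part of these shared exons was not tested.

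The other genes of the group had smaller mean changes. RAD51C had 633 and 517 counts in USP16 siRNA cells, against 420 in control cells. XRCC3 to RAD51C, which form a complex of their own, stood per kb at 0.488 (exact binomial 95% interval 0.428 to 0.557) and 0.679 (0.595 to 0.775) in USP16 siRNA cells, against 0.957 (0.837 to 1.09) in control cells. RAD54L, a translocase that works in strand invasion, had 701 and 492 counts in USP16 siRNA cells, against 670 in control cells (log2 change -0.02 and -0.67). RAD51D had 343 and 571 counts in USP16 siRNA cells, against 385 in control cells, and RAD52, an annealing protein, 252 and 355 in USP16 siRNA cells, against 266 in control cells. RAD51B had 61 and 82 counts in USP16 siRNA cells, against 50 in control cells. RAD51C and RAD51B were above the control in both libraries, and RAD51D and RAD52 on both sides of it.

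The Fanconi anemia genes repair crosslinks between DNA strands: a core complex with FANCL as its ligase ubiquitinates FANCD2 and FANCI. Of the 11 genes here, 4 were above and 4 below the control in both libraries, beside 33.4% and 33.5% of all genes tested. In this group 0 passed the test, and the median was 0.00 in each library. FANCM, the translocase that anchors the core complex, had 304 and 434 counts in USP16 siRNA cells, against 221 in control cells (log2 change 0.37 and 0.74). The helicase BRIP1, a partner of BRCA1, had 550 and 899 counts in USP16 siRNA cells, against 444 in control cells (0.22 and 0.79). FANCB, a subunit of the core complex, had 124 and 235 counts in USP16 siRNA cells, against 108 in control cells (0.11 and 0.89). All 3 were higher in library 2 than in library 1. On the lower side FANCA had 946 and 1351 counts in USP16 siRNA cells, against 1309 in control cells (-0.56 and -0.18). Exons of FANCA share 23.6% of their length with ZNF276 on the opposite strand. ZNF276 had 1067 and 525 counts in USP16 siRNA cells and 641 in control cells, and the part of these shared exons was not tested. FANCC had 483 and 723 counts in USP16 siRNA cells, against 655 in control cells. FANCG had 570 and 491 counts in USP16 siRNA cells, against 646 in control cells, and FANCL 474 and 608 in USP16 siRNA cells, against 570 in control cells. FANCC and FANCL were near the control in library 2 once library size was taken into account (-0.08 and -0.13), and FANCG was lowest there (-0.62). FANCF, an adaptor of the core complex, had 170 and 129 counts in USP16 siRNA cells, against 96 in control cells. FANCE had 169 and 186 counts in USP16 siRNA cells, against 159 in control cells, log2 changes that round to 0. FANCD2 had 658 and 1124 counts in USP16 siRNA cells, against 790 in control cells (-0.35 and 0.28). FANCI had 3023 and 2944 counts in USP16 siRNA cells, against 2753 in control cells (0.04 and -0.13). FANCI to FANCD2, per kb, stood at 5.06 and 2.88 in USP16 siRNA cells, on either side of 3.83 in control cells.

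Of the 6 rows of kinases and checkpoint genes, 3 were above and 3 below the control in both libraries, and 0 passed the test. Over all genes tested the shares above and below were 33.4% and 33.5%. ATM had 1668 and 1733 counts in USP16 siRNA cells, against 1231 in control cells (log2 change 0.35 and 0.27). CHEK1 had 700 and 678 counts in USP16 siRNA cells, against 520 in control cells (0.34 and 0.16). The main row of ATRIP had 164 and 177 counts in USP16 siRNA cells, against 221 in control cells (-0.52 and -0.54). ATRIP was lower by nearly the same amount in both libraries, while ATR had 1379 and 1868 counts in USP16 siRNA cells, against 1218 in control cells. ATRIP to ATR, per kb, stood at 0.214 (exact binomial 95% interval 0.181 to 0.252) and 0.171 (0.145 to 0.199) in USP16 siRNA cells, against 0.327 (0.282 to 0.377) in control cells. The other ATRIP identifier, ENSG00000282827, had 12 and 11 counts in USP16 siRNA cells and 15 in control cells, and exons of the main row share 1515 bases with TREX1 on the same strand. CHEK2, which has partial pseudogene copies, had 377 and 520 counts in USP16 siRNA cells, against 471 in control cells (log2 change -0.41 and -0.08).

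Members with transcripts of low GC content had higher values in USP16 siRNA library 2. Of 47 genes with an annotated transcript, 13 had a GC content below 40%, and their median log2 change was 0.11 in library 1 and 0.73 in library 2. The other 34 were at 0.02 and 0.04. Over all genes tested the medians were 0.09 and 0.26 below 40% GC, and -0.01 and -0.05 at or above it. Members below 40% GC made up 27.7% of the genes here, against 14.2% of all genes tested. Across the 47 genes, which share their libraries, Spearman's rho of log2 change with GC content was -0.32 in library 1 and -0.46 in library 2, and Pearson's r was 0.12 and -0.20, with EME2 as the gene of highest GC content. Over all genes tested rho was -0.07 and -0.19. The part of GC content in these results was not tested beyond the removal of its trend. With the trend on GC removed, a step chosen after seeing the data, RIF1 was at -0.04 and 0.74 and XRCC4 at 0.96 and 1.62, while EME2 was at 3.12 and 2.60 and BARD1 at -0.78 and -1.08.

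**Figure D4:**
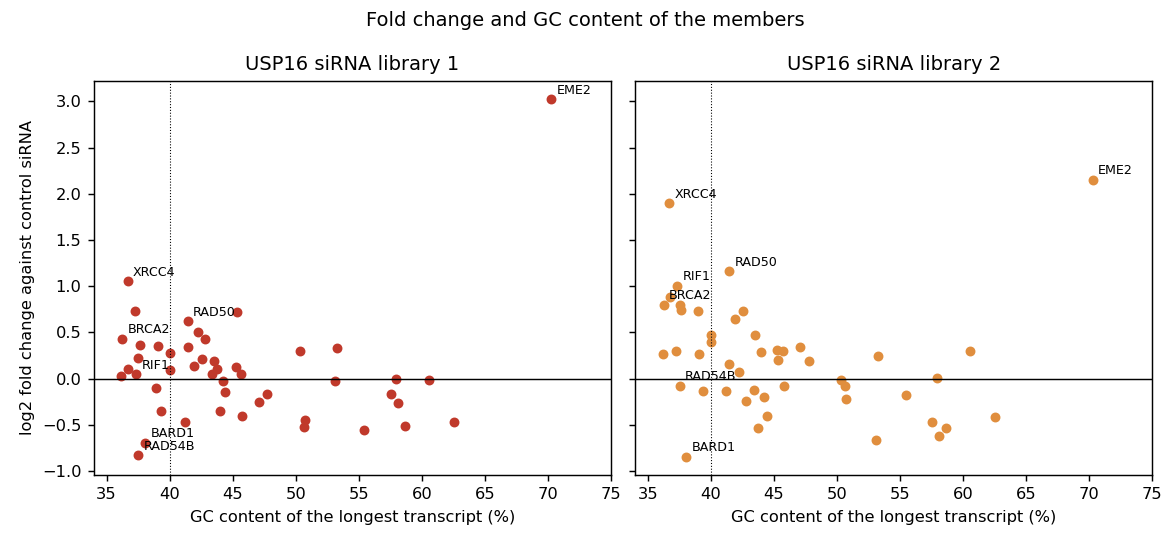
Log2 fold change against the control siRNA library (y axis) and GC content of the longest transcript (x axis) of 47 members, for USP16 siRNA library 1 on the left and library 2 on the right, with a dotted line at 40% GC. In library 2 most genes left of the line lie above 0, with BARD1, FANCL and RAD54B below it, and EME2 stands alone at high GC content in both.

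Further genes of the same pathways, 67 in all, were all tested, and 0 passed the edgeR threshold, with 2 at an unadjusted p under 0.05 (2.99%). Their median log2 change was -0.02 in library 1 and -0.06 in library 2, and 2 of them were at least 2-fold higher in both libraries, none lower. ETAA1, an activator of ATR, had 485 and 540 counts in USP16 siRNA cells, against 208 in control cells (log2 change 1.12 and 1.15, edgeR adjusted p = 0.999). FAM175A, the older symbol of ABRAXAS1, the scaffold that ties BRCA1 to ubiquitin chains at breaks, had 254 and 188 counts in USP16 siRNA cells, against 72 in control cells (1.70 and 1.14). TIPIN, of the complex that protects forks, had 554 and 655 counts in USP16 siRNA cells, against 278 in control cells (0.90 and 1.01). FAM35A, the older symbol of the shieldin subunit SHLD2, had 604 and 1094 counts in USP16 siRNA cells, against 395 in control cells (0.52 and 1.24). The share at least 2-fold higher in both, 2.99%, stands beside 3.75% of all genes tested. Of these genes 66 average 100 counts or more, and among them the share was 3.03%, beside 1.36% of all genes of that abundance. The 3.03% rests on ETAA1 and FAM175A. With 72 counts in control cells, FAM175A reached that mean only through the USP16 siRNA libraries, so no conclusion is drawn from this comparison.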

How the data were processed

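Deposited files hold raw counts of reads per gene for each library from the authors, per the file headers. HISAT2 2.0.4, StringTie 1.3.0 and hg38 are named in the submitters' processing notes. How reads were counted (tool, annotation, strand) is not given in the sources used here. One column header carries 6 where its sample's label (USP16 siRNA library 2) carries 2.

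Counts were filtered with filterByExpr, scaled by TMM and compared in R 4.3.3 with edgeR 4.0.16 (quasi-likelihood test, Benjamini-Hochberg adjustment over 17287 genes). That left 1 residual degree of freedom, which takes the single control to be as variable as the USP16 siRNA libraries. Log2 changes are on log2 CPM with a prior count of 2. The knockdown libraries differed beyond sampling noise (chi-square per degree of freedom 62.5). DESeq2 1.42.0 was an alternative. The fits were tested on simulated data of a fixed spread, which does not show how they fare at the spread of these libraries. Positions, lengths and GC content came from GENCODE 29, which matched 47 of 48 member rows. The members and lists were chosen with earlier results of these data known. Members named were those at least 2-fold away in both libraries, RNF8, RNF168 and the 3 with the largest mean change per role, with the 4 most changed of the other pathway genes, and others were added after their values were seen.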

Additional observations from a re-analysis of the deposited data

How the results depend on the processing

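No paired analysis was possible because there was 1 control library. Depth limits the low genes: EME2 had 40 and XRCC4 80 control counts. Over all genes edgeR called 3 genes, and 70 with no filter on low counts, 1 with a minimum mean of 100 counts and 14 with DESeq2. Of the members, 1 passed with no filter (EME2, adjusted p = 0.0188) and 0 otherwise. Members at least 2-fold higher in both libraries numbered 1 in place of 2 with a prior count of 10, on log2(CPM + 5) and with the GC trend removed, since XRCC4 in library 1 was then at 0.99, 0.68 and 0.96. At least 1.5-fold lower members numbered 0 on log2(CPM + 5), where BARD1 was at -0.58 and -0.71. With library 2 or library 1 of the USP16 siRNA cells left out, 2 or 4 members were past 2-fold on the higher side. Past 1.5-fold, 5 or 11 members were higher and 2 or 3 lower, and the median log2 change was 0.05 or 0.19. A rule on 1 library is easier to meet than a rule on both. Shares of all genes tested were not taken for 1 library, so no conclusion about the members is drawn from these counts. RNF8 was at -0.54 to 0.10 and WRN at -0.10 to 0.73, the only genes named by the rule to change direction under any alternative; the cause was not tested.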
